A study of Mus musculus with 12 samples.

Results

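The genes of cholesterol and fatty acid synthesis were described in macrophages grown from mouse bone marrow, with and without LPS, in wild-type (WT) mice and in mice whose IRAK4 kinase is dead (KD). The group holds 32 genes, chosen by their role in the pathway by a rule that uses no measured value, though with earlier results of these data known. Each gene was read through the probe set that carries its symbol alone and has the highest mean signal. Of the 32 genes, 31 had such a probe set, out of 18193 genes named in this way on the array, and Acat2 was not analysed here. A filter on low signals left 30 of them, out of 12914 tested genes. The gene it left out was Elovl6, a fatty acid elongase, whose signal was between 1 and 23.6 on the 12 arrays. Of the 31 genes, 27 had a signal above the array's median on all 12 arrays. Fdps (farnesyl diphosphate synthase) passed the filter on 2 arrays and lay between 2 and 39.3, and Tm7sf2 (a sterol reductase) on 9 arrays.

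Cholesterol is built from acetyl-CoA through mevalonate, farnesyl diphosphate and squalene, and the enzymes downstream of squalene then reshape lanosterol into cholesterol. Transcription of most of these enzymes is driven by SREBP-2, the product of Srebf2, and that of fatty acid synthases and desaturases by SREBP-1, the product of Srebf1. Scap escorts both proteins out of the endoplasmic reticulum when membrane sterol is low, and the Insig proteins hold them there when it is high. Macrophages also remodel their membrane lipids after sensing bacteria, and some sterol intermediates and oxysterols act on immune signalling.

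Each of the 6 groups had 2 arrays, each array carrying the RNA of 1 culture. The groups were WT and KD cells kept for 4 h without LPS, treated for 1 h with LPS at 1 µg/ml, or treated for 4 h with the same dose. LPS is a bacterial membrane component sensed by Toll-like receptor 4, and IRAK4 is a kinase that acts below that receptor through MyD88. All cultures were grown in serum and in medium conditioned by L-929 cells, and the labels give no age, sex or background strain of the mice. Because the unstimulated cells were kept for 4 h, the dose and the time in culture differ together in the comparisons at 1 h. The labels call the 2 arrays of a group biological replicates without saying whether these are separate animals, so p-values measure the spread between arrays.

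The replicates' signals correlated at 0.879 to 0.913 (Spearman, across probe sets). The median signal of an array was 18.9 to 22 for WT and 24.2 to 26.9 for KD cultures, while their trimmed means were 149.9 to 150. The 3' to 5' log2 ratio of Actb, a sign of RNA length, was 3.04 on KD unstimulated replicate 1 and 2.22 to 2.85 elsewhere. Summed over 8 macrophage markers, the signal was 17850 to 25920, with Adgre1 (F4/80) between 2128.5 and 2944.5, while Itgam (CD11b) reached 88.8 at most. The transcript of Irak4 was not analysed here, and the strains were taken from their labels. Markers of B cells summed to 4.2 to 45 per array, those of T and NK cells to 29.4 to 55 and of neutrophils to 46.3 to 127.1. Those of adipocytes summed to 19.5 to 57.7 on the WT arrays and to 70.7 to 125.2 on the KD arrays.

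Promoter sequences are shown first for 3 members with different behaviour in the results: Hmgcs1, with 1 call, a rise, and Dhcr7 and Msmo1, which fell. RefSeq windows of build GRCm38.p6, from 250 bases before to 50 bases after an annotated start, were found for 25 of the 32 genes. None was used for Fdft1, Fdps, Sqle, Stard4, Scd1, Scd2 or Fads1. In the windows below, capitals mark matches on either strand to the sterol regulatory element TCACNCCAC and to CCAAT, which reads ATTGG on the other strand.
Hmgcs1 (chr13:119690101-119690400, plus strand): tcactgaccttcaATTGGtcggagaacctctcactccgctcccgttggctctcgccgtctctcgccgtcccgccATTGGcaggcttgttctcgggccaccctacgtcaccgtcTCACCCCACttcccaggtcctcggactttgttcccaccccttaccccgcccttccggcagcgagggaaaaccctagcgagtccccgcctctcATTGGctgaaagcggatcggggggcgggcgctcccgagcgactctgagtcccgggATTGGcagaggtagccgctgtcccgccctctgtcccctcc
Dhcr7 (chr7:143829964-143830263, plus strand): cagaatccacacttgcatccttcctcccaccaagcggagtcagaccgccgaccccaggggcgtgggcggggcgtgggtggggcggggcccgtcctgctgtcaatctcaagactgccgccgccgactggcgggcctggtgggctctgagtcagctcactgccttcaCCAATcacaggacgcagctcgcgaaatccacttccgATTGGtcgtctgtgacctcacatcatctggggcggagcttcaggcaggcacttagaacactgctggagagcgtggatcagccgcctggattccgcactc
Msmo1 (chr8:64733529-64733828, minus strand): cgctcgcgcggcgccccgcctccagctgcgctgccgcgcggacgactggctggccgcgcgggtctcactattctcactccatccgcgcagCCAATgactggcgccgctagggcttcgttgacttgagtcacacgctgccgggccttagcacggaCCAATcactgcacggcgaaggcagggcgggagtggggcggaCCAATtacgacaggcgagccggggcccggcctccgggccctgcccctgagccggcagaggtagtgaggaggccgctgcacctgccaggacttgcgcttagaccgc
The sterol regulatory element was matched in 1 of the 25 members, Hmgcs1, where it began at -137 from the start, and in 1.44% of all 27025 genes with a window. CCAAT was matched in 20 of 25 members (80%) and in 41.1% of all genes. In the Dhcr7 window CCAAT lay at -85 and, on the other strand, at -49, and the other starts listed for Dhcr7 held none. The Msmo1 window had matches at -160, -96 and -55. A GC box (GGGCGG, either strand) was matched in 21 of 25 members (84%) and in 38.2% of all genes. None of these motifs contains another. These are letter matches in fixed windows, which do not show binding by a factor.

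After 4 h of LPS in WT cells, 6 of the 30 tested members fell and 0 rose. They were 4 enzymes between squalene and cholesterol (Dhcr7, Msmo1, Ebp and Lss) and 2 fatty acid desaturases (Scd2 and Fads1). A gene is said to rise or fall where limma's adjusted p, over all 27931 tested probe sets, was under 0.05. Of all tested probe sets, 10.2% fell and 6.95% rose in that comparison. At an unadjusted p under 0.05 limma gave 7 members lower and 0 higher. The share of all tested probe sets at that unadjusted threshold was not computed, here or for the later comparisons. Such counts therefore have no background beside them. The members' median log2 change was -0.205, beside -0.119 for all tested probe sets. In KD cells at 4 h, 4 members fell (Fads1, Dhcr7, Scd2 and Msmo1) and 1 rose (Scd1), where 4.7% of all tested probe sets fell and 5.3% rose, and the medians were -0.121 and -0.046. With 1 array left out, the number called was 4 to 6 in WT and 3 to 6 in KD, with 3 in KD without unstimulated replicate 2 or without LPS 4 h replicate 2. When the variance prior had no trend with signal, 2 members were called in KD at 4 h. In that KD comparison 5 of 8 tested markers of stromal cells also rose (median log2 change 0.754) and 3 of 8 macrophage markers fell. In WT at 4 h 1 stromal marker fell, and of the macrophage markers 1 rose and 1 fell. The part of other cells in these changes was not tested. Log2 changes are differences of log2(signal + 4.4), which understates the change of dim genes, and errors are standard errors (SE) unless marked SD. In these bulk samples, fewer cells of a type and less RNA per cell cannot be told apart.

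**Figure D1:**
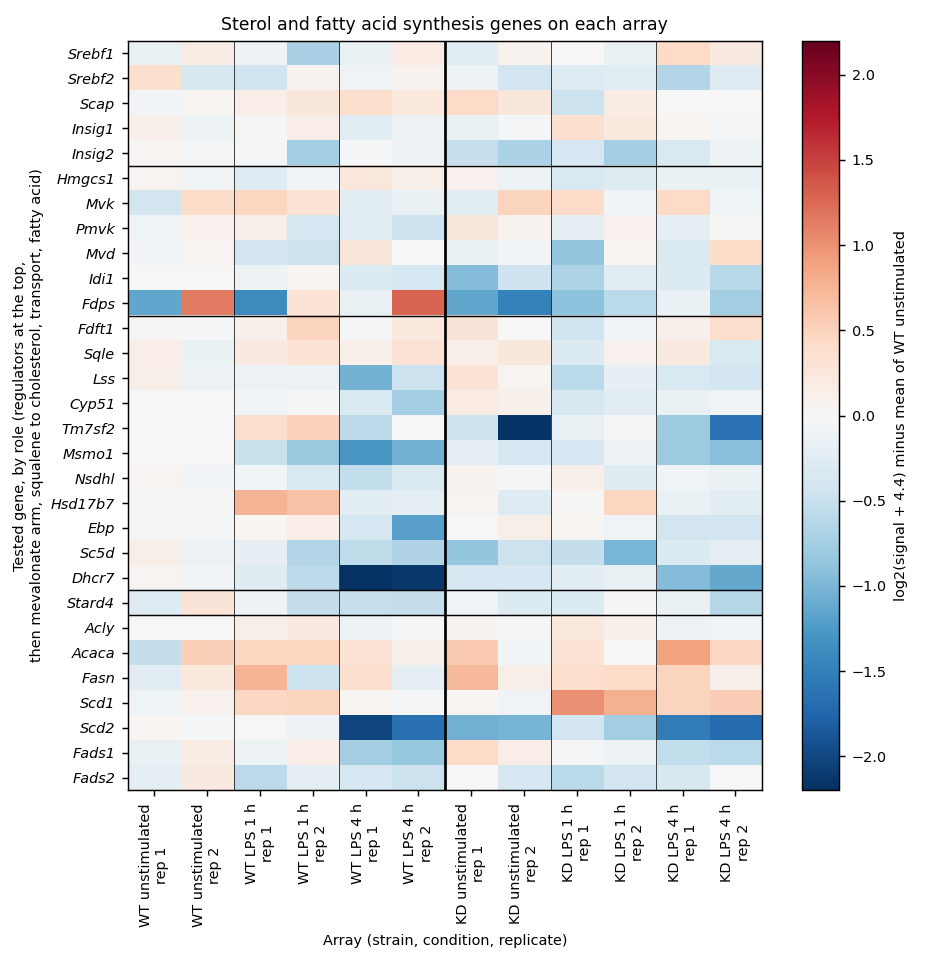
Each cell is the log2(signal + 4.4) of a tested gene (30 rows, grouped by role) on 1 array (12 columns) minus the mean of the 2 WT unstimulated arrays, blue for lower and red for higher. In the columns of the 2 WT arrays at 4 h of LPS, Dhcr7 and Scd2 are the darkest blue rows. Fdps and Tm7sf2, which are dim, vary within groups.

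After 1 h of LPS, 3 members were called in WT cells and 2 in KD cells. In WT cells 2 rose (Hsd17b7 and Scd1) and 1 fell (Msmo1), where 2.89% of all tested probe sets rose and 3.23% fell. The number was 0 without WT unstimulated replicate 1 or without WT LPS 1 h replicate 2, 1 without WT unstimulated replicate 2, and at most 4 with another array left out, and it was 0 when the variance prior had no trend. In KD cells 2 rose (Scd1 and Insig1) and 0 fell, where 3.17% of all tested probe sets rose and 2.29% fell, and at an unadjusted p under 0.05 limma gave 4 higher and 5 lower. That number was 1 without KD LPS 1 h replicate 1 and 4 without replicate 2. Of the 8 stromal markers 4 also rose in KD at 1 h (median 0.714) and 1 in WT, and their part was not tested. The members' median change at 1 h was -0.051 in WT and -0.02 in KD, beside -0.033 and -0.006 for all tested probe sets. The comparisons at 1 h and at 4 h share their unstimulated arrays, so they are given side by side and not set against each other.

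From 1 h to 4 h of LPS, 7 members fell in WT and 1, Hmgcs1, rose, where 8.74% of all tested probe sets fell and 7.1% rose. The 7 were Scd2, Dhcr7, Hsd17b7, Ebp, Fads1, Msmo1 and Scd1, and 5 members were called without WT LPS 4 h replicate 2. In KD cells 5 fell over the same time (Scd2, Dhcr7, Msmo1, Scd1 and Acly) and 0 rose, where 3.88% of all tested probe sets fell and 4.55% rose, and limma gave 9 lower and 1 higher at an unadjusted p under 0.05. The KD number was 3 without either array at 1 h and 2 without either array at 4 h. Both comparisons use the arrays at 4 h that also enter the comparison with unstimulated cells. In all, 11 of the 30 members were called in at least 1 of the 9 comparisons and 19 in none. The share of all tested probe sets called in at least 1 of the 9 was not computed, so this count has no background beside it.

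**Figure D2:**
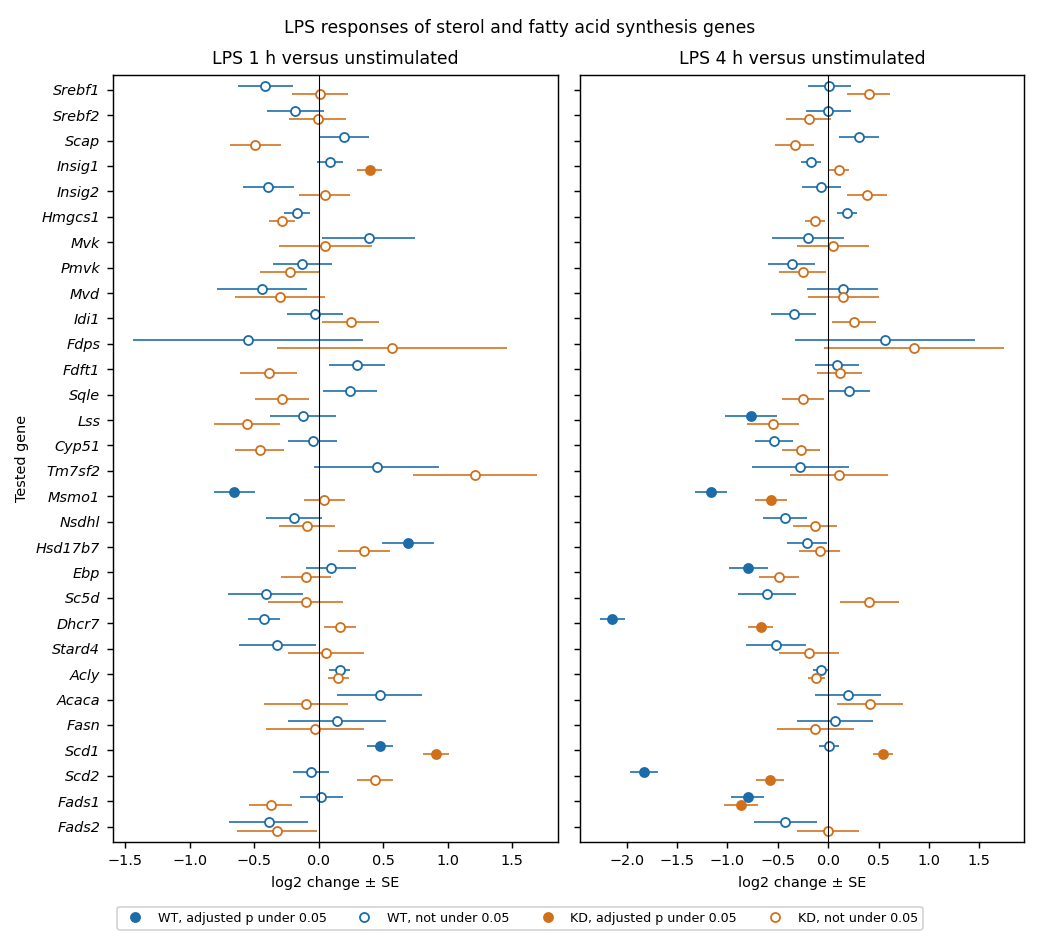
Log2 change ± SE of the 30 tested genes after 1 h (left) and 4 h (right) of LPS against unstimulated cells, in WT (blue) and KD (orange), with filled points for an adjusted p under 0.05. At 4 h the WT points of Dhcr7 (-2.14) and Scd2 (-1.83) lie farthest to the left.

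Among the 11 enzymes from squalene to cholesterol, the largest change was that of Dhcr7, which encodes the reductase of the last step to cholesterol. Its signal was 1009.7 and 921.5 in unstimulated WT cells, 800.7 and 646.1 at 1 h and 211.4 and 218.9 at 4 h. In KD cells it was 746.9 and 748.6 unstimulated, 810.5 and 865.3 at 1 h and 497.1 and 440.5 at 4 h. The groups at 4 h did not overlap with the others in either strain, and both WT arrays at 4 h lay below both KD arrays. The fall at 4 h was -2.14 ± 0.12 in WT (limma adjusted p = 1.95e-10), 4.41-fold, and -0.67 ± 0.12 in KD (limma adjusted p = 0.00115), 1.59-fold. At 1 h the change was -0.42 ± 0.12 in WT, which missed the threshold (limma adjusted p = 0.0513), and 0.16 ± 0.12 in KD (limma adjusted p = 0.559). Dhcr7 also fell between 1 h and 4 h, by 1.72 in WT and by 0.83 in KD. These 4 calls were made in all 20 alternative fits that were run. For Dhcr7, Scd1, Scd2 and Fads1, the alternative with probe sets without a letter suffix reads the same probe set, so it could not change their calls.

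Msmo1, a methylsterol monooxygenase that acts in the removal of methyl groups from the sterol ring, gave 384.9 and 384.4 in unstimulated WT cells, 271.5 and 217 at 1 h and 155.4 and 184.3 at 4 h. In KD cells the signals were 333.9 and 294.7, then 296.1 and 353.6 at 1 h and 218.6 and 202.2 at 4 h. The WT groups stepped down without overlap, while in KD the unstimulated and 1 h arrays overlapped. Msmo1 fell by 0.65 in WT at 1 h (SE 0.16, limma adjusted p = 0.018) and changed by 0.04 ± 0.16 in KD. At 4 h it fell by 1.16 in WT (SE 0.16, limma adjusted p = 2.58e-05) and by 0.57 in KD (SE 0.16, limma adjusted p = 0.0284). Between 1 h and 4 h it fell by 0.51 in WT and by 0.61 in KD.

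The WT call of Msmo1 at 4 h held with any array left out, and the other 4 calls did not. At 1 h the WT call was lost without either unstimulated array (-0.654 and -0.655) or without 1 h replicate 2 (-0.496). At 4 h the KD call was lost without any of the 4 arrays compared, at -0.656 to -0.479. The WT call between 1 h and 4 h was lost without 1 h replicate 1 (-0.35) and without 4 h replicate 1 (-0.389) or 2 (-0.629). The KD call from 1 h to 4 h was lost without 1 h replicate 2 (-0.485) and without 4 h replicate 1 (-0.667) or 2 (-0.557). Another Msmo1 probe set, with a mean signal of 17.9, was called in no comparison and had the opposite sign in 3 of these 5.

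Ebp, the sterol isomerase upstream of Dhcr7, gave 277.7 and 266.8 in unstimulated WT cells, 281.7 and 299.9 at 1 h and 206.2 and 116.6 at 4 h. In KD cells it gave 274.4 and 299.7, 279 and 256.5, and 204.2 and 202.6. The arrays at 4 h were the lowest in both strains, and the WT pair at 4 h was the most spread. Ebp fell in WT at 4 h by 0.79 (SE 0.20, limma adjusted p = 0.0072) and by 0.89 from 1 h to 4 h. Without WT LPS 4 h replicate 2 these changes were -0.393 and -0.487 and neither was called, and the first was also not called without unstimulated replicate 1 (-0.765). In KD the change at 4 h was -0.49 ± 0.20, which missed the threshold (limma adjusted p = 0.139).

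Lss, which closes squalene epoxide into lanosterol, gave 100 and 83.8 in unstimulated WT cells, 83.6 and 83.7 at 1 h and 42.1 and 64.4 at 4 h, a fall of 0.76 from the unstimulated level (SE 0.26, limma adjusted p = 0.0483). That call, just under the threshold, was lost in 13 of the 19 alternative fits that tested Lss. They include those without either WT unstimulated array, either WT array at 1 h, WT LPS 4 h replicate 1 or either KD array at 4 h, where the change was -0.884 to -0.48. In KD Lss gave 113.2 and 95.2, 59.4 and 80.7, and 72.1 and 66.9 at 4 h, a change of -0.55 ± 0.26 (limma adjusted p = 0.22).

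Hsd17b7, a reductase of the same demethylation steps as Msmo1, was the only enzyme of the 11 with a call upward. Its signal was 122.2 and 128.1 in unstimulated WT cells, 212.9 and 197.6 at 1 h and 106.4 and 108.4 at 4 h. In KD it was 130.9 and 102.5, 127 and 174.8, and 112 and 106.1. Both WT arrays at 1 h lay above the other 10. The rise at 1 h was 0.69 ± 0.20 in WT (limma adjusted p = 0.0461). That call was lost without either array of WT unstimulated, WT LPS 1 h, WT LPS 4 h or KD LPS 4 h, at changes of 0.641 to 0.747. From 1 h to 4 h it fell by 0.91 in WT (SE 0.20, limma adjusted p = 0.00345), which held with any array left out, though its other tested probe set was not called there or at 1 h (0.238). The change at 1 h in KD was 0.35 ± 0.20 (limma adjusted p = 0.395).

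The other 6 enzymes of this segment passed no test in any comparison. Fdft1 (squalene synthase) lay between 79.6 and 156 over the 12 arrays, Sqle (squalene epoxidase, a rate-limiting enzyme) between 115.1 and 181.5, and Nsdhl, a sterol dehydrogenase, between 74 and 119.2. Cyp51, the lanosterol demethylase, lay between 86.2 and 167.7, with its lowest group mean of 101 ± 21.1 (SD, n = 2) in WT at 4 h. Sc5d, a sterol desaturase, lay between 36.6 and 85.8 and Tm7sf2 between 6.1 and 62.5. Across the 11 enzymes the median change at 4 h was -0.535 in WT and -0.254 in KD, beside -0.119 and -0.046 for all tested probe sets. Of the 11, 4 fell in WT and 2 in KD, where 10.2% and 4.7% of all tested probe sets fell. Stard4, a carrier of cholesterol between membranes, lay between 45 and 88.5 and was not called.

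**Figure D3:**
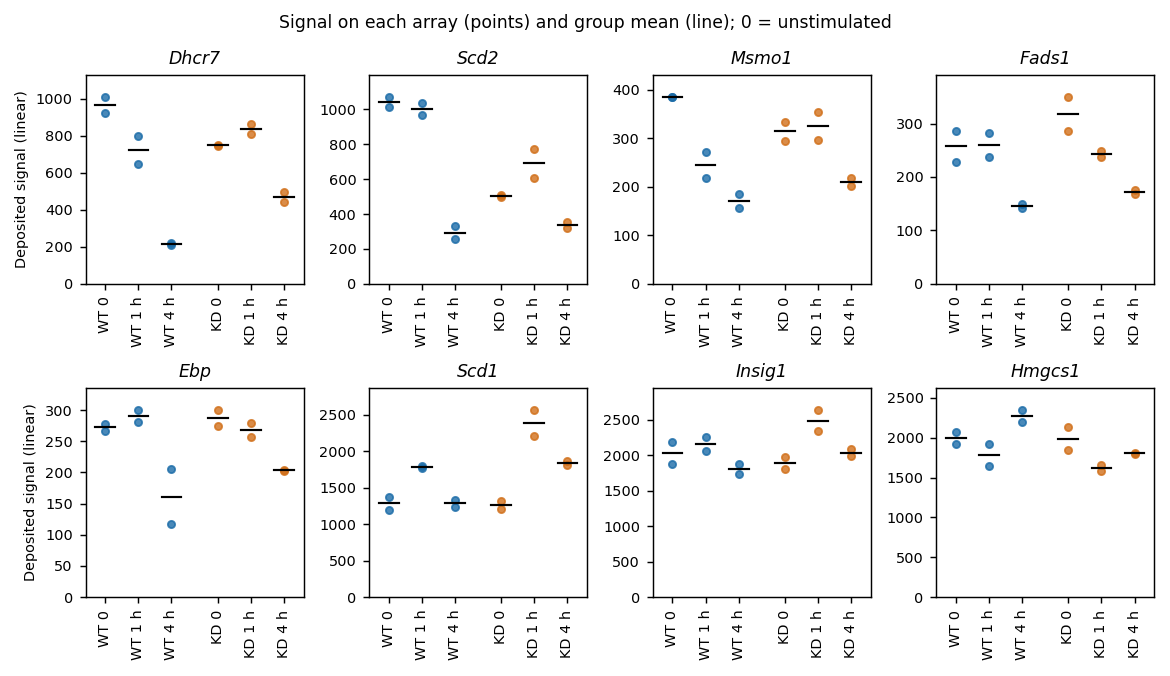
Deposited signal on each array (points) and group mean (line) for 8 members in WT (blue) and KD (orange), with 0 for unstimulated cells and a linear axis from 0. Dhcr7 and Scd2 drop at 4 h to 211.4 to 218.9 and 254.3 to 328.8 in WT, while Scd1, Insig1 and Hmgcs1 keep high signals.

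Upstream of squalene, 1 call was made among the 6 tested members. Hmgcs1, the synthase that makes HMG-CoA, gave 2075.5 and 1915.5 in unstimulated WT cells, 1639.4 and 1922.8 at 1 h and 2344.7 and 2191.6 at 4 h. In KD cells it gave 2129.1 and 1841.2, 1586.5 and 1659.8, and 1799.7 and 1806.7. The WT arrays at 4 h were the highest of the 12. From 1 h to 4 h in WT Hmgcs1 rose by 0.35 ± 0.10 (limma adjusted p = 0.0194), and this was lost without 1 h replicate 1 (0.237) and without 4 h replicate 1 (0.303) or 2 (0.4). Another Hmgcs1 probe set rose by 0.387 in the same comparison and fell by 0.405 at 1 h in WT (limma adjusted p = 0.0313), where the main one gave -0.17 ± 0.10. Against unstimulated cells, the main Hmgcs1 probe set changed by 0.18 ± 0.10 in WT and -0.13 ± 0.10 in KD at 4 h, neither past the threshold.

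Mvk and Pmvk, the kinases of mevalonate and phosphomevalonate, lay between 30.8 and 61 and between 72.5 and 122.1. Mvd, the decarboxylase after them, lay between 24.9 and 65.4. Idi1, the isomerase of isopentenyl diphosphate, lay between 78.2 and 161.5, with a group mean of 156 ± 1.56 in unstimulated WT cells and 95.7 ± 24.7 (SD, n = 2) in unstimulated KD cells. None of these 4 genes was called in any comparison. The median change of the 6 tested members at 4 h was -0.027 in WT and 0.1 in KD, beside -0.119 and -0.046 for all tested probe sets. The 6 include Fdps, which was above the array median on only 2 arrays.

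Of the 5 regulators, 1 was called once. Insig1, the sterol-sensing brake on SREBP processing and itself an SREBP target, gave 1810.9 and 1970.7 in unstimulated KD cells, 2634.1 and 2344.6 at 1 h and 2081.3 and 1993.2 at 4 h. In WT it gave 2190.7 and 1877, 2059.7 and 2252.3, and 1730.2 and 1873.2. The KD arrays at 1 h were above the other 10. In KD at 1 h Insig1 rose by 0.39 ± 0.10 (limma adjusted p = 0.0217), and the call was lost without unstimulated replicate 1 (0.334) or 1 h replicate 1 (0.311). In WT at 1 h the change was 0.09 ± 0.10. The difference between the strains' responses was 0.31 ± 0.14 with a limma adjusted p of 0.421.

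Srebf2 lay between 151.3 and 304.3, Srebf1 between 99.5 and 225.4, Scap between 109.8 and 206.9 and Insig2, the second Insig, between 207.3 and 361.9, and none was called. At 4 h Insig1, the regulator with the highest mean signal, changed by -0.17 ± 0.10 in WT and 0.11 ± 0.10 in KD. Another Insig2 probe set rose in WT at 4 h by 0.55 (limma adjusted p = 0.0288) and from 1 h to 4 h by 0.679 (limma adjusted p = 0.00824), unlike the main one.

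In the fatty acid branch the calls fell on desaturases (Scd1, Scd2 and Fads1) and, once, on Acly. Scd2, a stearoyl-CoA desaturase that makes monounsaturated fatty acids, gave 1071.3 and 1010.9 in unstimulated WT cells, 1035.8 and 965.9 at 1 h and 254.3 and 328.8 at 4 h. In KD cells it gave 500 and 511.8, 774.8 and 607.8, and 354.2 and 320.7. In WT the arrays at 1 h overlapped with the unstimulated ones, and at 4 h the WT and KD arrays overlapped. Scd2 fell at 4 h by 1.83 in WT (SE 0.14, limma adjusted p = 1.15e-08), 3.56-fold, and by 0.58 in KD (SE 0.14, limma adjusted p = 0.00993), 1.49-fold. The KD call was lost without unstimulated replicate 2 (-0.563) or without 4 h replicate 2 (-0.509). In KD at 1 h the change was 0.44 ± 0.14, which missed the threshold (limma adjusted p = 0.0804). From 1 h to 4 h Scd2 fell by 1.77 in WT and by 1.02 in KD, and both calls were made in all 20 alternative fits. Of its 2 other tested probe sets, 1 also fell at 4 h in WT (-2.103) and in KD (-1.08). The other was not called, at -0.948 in WT (limma adjusted p = 0.08) and, in the opposite direction, 0.268 in KD (limma adjusted p = 0.743).

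Scd1, the other stearoyl-CoA desaturase among the members, had another time course. It gave 1192.8 and 1374.3 in unstimulated WT cells, 1764.3 and 1800.9 at 1 h and 1335.2 and 1240.6 at 4 h. In KD it gave 1316.6 and 1210.1, 2562.8 and 2209.1, and 1809.7 and 1869.2. The arrays at 1 h were the highest of each strain, and in KD the arrays at 4 h stayed above the unstimulated ones, while in WT they overlapped with them. At 1 h Scd1 rose by 0.48 ± 0.10 in WT (limma adjusted p = 0.00636) and by 0.91 ± 0.10 in KD (limma adjusted p = 7.91e-06). The WT call was lost without unstimulated replicate 1 (0.374) or without 1 h replicate 2 (0.461), and the KD call was made in all 20 alternative fits. At 4 h the change was 0.01 ± 0.10 in WT and a rise of 0.54 ± 0.10 in KD (limma adjusted p = 0.00121), a call lost when the variance prior had no trend (limma adjusted p = 0.0711). Between 1 h and 4 h Scd1 fell by 0.47 in WT and by 0.37 in KD, and the KD call was lost without 1 h replicate 1 (-0.264) or without 4 h replicate 1 (-0.347) or 2 (-0.394).

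Fads1, a desaturase of polyunsaturated fatty acids, gave 228.5 and 286.6 in unstimulated WT cells, 237.8 and 282.9 at 1 h and 148.9 and 141.5 at 4 h. In KD it gave 349.7 and 285.1, 248.5 and 237.2, and 174.6 and 168.1. The arrays at 4 h were the lowest of each strain with no overlap. The fall at 4 h was 1.74-fold in WT (log2 -0.80 ± 0.17, limma adjusted p = 0.00187) and 1.82-fold in KD (log2 -0.87 ± 0.17, limma adjusted p = 0.00167), and both calls were made in all 20 alternative fits. Fads1 fell by 0.82 in WT between 1 h and 4 h, and the KD change of -0.49 ± 0.17 missed the threshold (limma adjusted p = 0.0794). In each comparison where Fads1 was called, its other tested probe set had the same sign but was not called. Fads2, its partner desaturase, lay between 36.9 and 67.1 and was not called.

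Acly, which makes cytosolic acetyl-CoA from citrate, lay between 2869.9 and 3690.6 on the 12 arrays and gave 3690.6 and 3367.1 in KD at 1 h and 2869.9 and 2977.7 at 4 h. The fall of 0.27 between them (SE 0.08, limma adjusted p = 0.0422) was lost without either array of WT unstimulated, WT LPS 4 h, KD LPS 1 h or KD LPS 4 h, at -0.336 to -0.204. Of the 4 other tested Acly probe sets, 0 were called in that KD comparison and 2 had the same sign. The corresponding WT change was -0.23 ± 0.08 (limma adjusted p = 0.0536), and another Acly probe set fell there by 0.357. Acaca, the carboxylase that commits acetyl-CoA to fatty acids, lay between 34.6 and 98.6. Fasn, fatty acid synthase, lay between 29 and 73.3, and neither of these was called.

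Strains were first compared without LPS. Scd2 was lower in KD than in WT, 500 and 511.8 against 1071.3 and 1010.9, a log2 difference of -1.03 ± 0.14 (limma adjusted p = 0.000255), 2.05-fold. It was the 1 member called of 30, where 2.87% of all tested probe sets were lower in KD and 2.37% higher. The number was 2 without either WT array at 1 h or either KD unstimulated array. At an unadjusted p under 0.05 limma gave 6 members lower and 0 higher, and the share of all tested probe sets at that threshold was not computed. Dhcr7 differed by -0.37 ± 0.12 and missed the threshold (limma adjusted p = 0.103). Of the 2 other tested Scd2 probe sets, 1 was also lower in KD. The call of Scd2 held with any array left out and was lost without a trend in the variance prior (limma adjusted p = 0.069).

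Markers of stromal cells moved in the same comparison. Their summed signal over 10 genes was 4589 and 4460 in unstimulated WT cells and 2647 and 2226 in unstimulated KD cells, and 5 of the 8 tested were lower in KD. Col1a1, a collagen chain, differed by -1.12 ± 0.14. The sums were 5065 and 5160 in WT at 1 h, 3950 and 3486 in WT at 4 h, 4472 and 3669 in KD at 1 h and 4425 and 4028 in KD at 4 h. Of the 8 macrophage markers, 3 were higher in unstimulated KD cells. Lum and Thy1, of the stromal list, stayed at 8.8 and 14.5 or below. Adipoq, the only adipocyte marker tested, differed by 0.827 between unstimulated KD and WT cells and was not called. The part of stromal cells or adipocytes in the strain differences of Scd2 and Dhcr7 was not tested.

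The difference between the strains' responses was then tested as an interaction, KD response minus WT response. At 4 h 3 members had a called difference, all higher in KD, where 1.88% of all tested probe sets had a higher and 1.19% a lower one. For Dhcr7 the difference was 1.47 ± 0.18 (95% interval 1.10 to 1.84, limma adjusted p = 0.000138). For Scd2 it was 1.25 ± 0.20 (95% interval 0.84 to 1.67, limma adjusted p = 0.00176). The 2 other tested Scd2 probe sets gave 1.023 and 1.216, and neither was called (limma adjusted p = 0.166 and 0.243). The unstimulated level of Scd2 that enters this difference was itself lower in KD, and the arrays of the strains overlapped at 4 h. For Scd1 it was 0.53 ± 0.14 (limma adjusted p = 0.0479). The Scd1 call was lost without either array of WT unstimulated, WT LPS 1 h, WT LPS 4 h or KD LPS 4 h, without KD unstimulated replicate 2 or without KD LPS 1 h replicate 1, at 0.432 to 0.636. The calls of Dhcr7 and Scd2 held with any array left out and were lost without a trend in the variance prior (limma adjusted p = 0.0794 and 0.115). Stromal markers differed in the same direction, 5 of 8 tested being called higher, and Adipoq differed by 1.081 without a call. The part of such cells in these differences was not tested.

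A difference that missed the threshold does not show that a member responded alike in the strains. For Msmo1 the difference at 4 h was 0.60 ± 0.23 (95% interval 0.12 to 1.07, limma adjusted p = 0.192), for Ebp 0.31 ± 0.28 (-0.27 to 0.89) and for Lss 0.21 ± 0.36 (-0.55 to 0.97). For Fads1 it was -0.07 ± 0.24 with a 95% interval of -0.56 to 0.43. The members' median difference was 0.275, beside 0.069 for all tested probe sets, and with quantile normalization these were 0.149 and 0.021. At 1 h, 0 members had a called difference, where 0.175% of all tested probe sets had a higher and 0.15% a lower one. At an unadjusted p under 0.05 limma gave 5 higher and 2 lower there, and Dhcr7 differed by 0.58 ± 0.18 (limma adjusted p = 0.181).

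**Figure D4:**
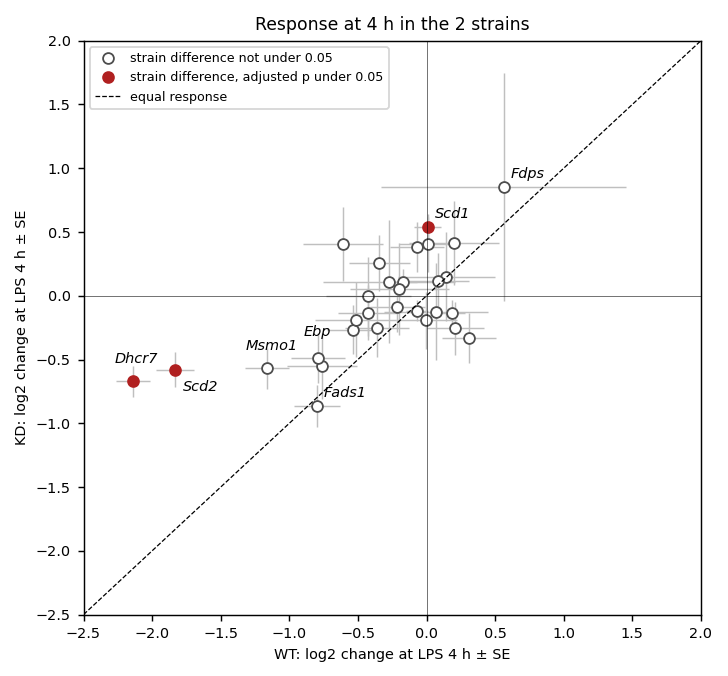
Log2 change ± SE at 4 h of LPS in WT (horizontal) against KD (vertical) for the 30 tested genes, with a dashed line of equal response and filled points where the difference had an adjusted p under 0.05. Dhcr7, Scd2 and Scd1 are the filled points, above the line, and Fads1 lies near it.

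Other genes of the same pathways were read from 3 lists. Of 10 tested genes of sterol uptake and synthesis, 2 fell and 1 rose in WT at 4 h, and 0 fell and 1 rose in KD. Over all tested probe sets, 10.2% fell and 6.95% rose in WT, and 4.7% fell and 5.3% rose in KD. Rnf145, a ubiquitin ligase of the sterol-regulated system, gave 548.2 and 555 in unstimulated WT cells and 1073.5 and 1027.1 at 4 h. It rose by 0.92 ± 0.11 in WT and by 0.84 ± 0.11 in KD. Npc1, which moves cholesterol out of lysosomes, fell by 0.62 in WT (SE 0.14), a call lost without WT LPS 4 h replicate 2, and Lbr, another sterol reductase, by 0.39, lost without WT unstimulated replicate 2 or either WT array at 4 h.

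Of 14 tested genes of fatty acid synthesis and activation, 1 rose and 1 fell in WT at 4 h, and 0 rose and 2 fell in KD. Over all tested probe sets, 6.95% rose and 10.2% fell in WT, and 5.3% rose and 4.7% fell in KD. Acss2, which makes acetyl-CoA from acetate and is an SREBP target, gave 553.4 and 545.5 in unstimulated WT cells and 299.5 and 324.4 at 4 h. In KD it gave 528 and 701.7, then 626 and 631.6. Acss2 fell by 0.81 in WT (SE 0.13, limma adjusted p = 0.000137), a call lost with probe sets without a letter suffix (-0.762, limma adjusted p = 0.083). Acsl5, an acyl-CoA synthetase, rose by 0.56 ± 0.11 in WT. Elovl1 and Elovl5, fatty acid elongases, fell by 0.41 (SE 0.11 and 0.08) in KD, and the call of Elovl1 was lost without KD unstimulated replicate 2 or LPS 4 h replicate 1. The call of Elovl5 was lost with probe sets without a letter suffix (-0.194, limma adjusted p = 0.172), and both were lost without a trend in the variance prior.

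Among 6 tested genes that sense, export or store sterol, 2 rose and 2 fell in WT at 4 h, and 2 rose and 1 fell in KD. The shares over all tested probe sets were 6.95% and 10.2% in WT, and 5.3% and 4.7% in KD. Ch25h, which makes an oxysterol that blocks SREBP processing, gave 107.5 and 88.2 in unstimulated WT cells, 116.4 and 105.4 at 1 h and 511.4 and 581 at 4 h. In KD it gave 163.8 and 156.1, 130.7 and 150.5, and 422.2 and 401.9. It rose by 2.43 ± 0.17 in WT (limma adjusted p = 2.24e-09) and by 1.34 ± 0.17 in KD (limma adjusted p = 1.53e-05). Abca1, the cholesterol exporter, rose by 0.76 ± 0.12 and 0.68 ± 0.12, the KD call being lost when the variance prior had no trend, and Abcg1, another exporter, fell by 0.45 and 0.28, the KD call of Abcg1 being lost without either WT unstimulated array, KD unstimulated replicate 2 or either KD array at 4 h. Cyp27a1, which makes another oxysterol, fell by 1.02 in WT (SE 0.30), a call lost without either WT unstimulated array or WT LPS 4 h replicate 2.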

How the data were processed

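The authors deposited linear signal intensity values per probe set, 1 column for each of 12 arrays, and the submitters' processing notes name MAS5 with no version or settings. Labelled RNA was made with the NuGEN Ovation protocol, per the labels' protocols. Every array had a trimmed mean (2% cut from each end) of 149.9 to 150, so the values were used without rescaling. The number of arrays limits the precision.

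Symbols came from the platform annotation, and only probe sets with 1 symbol named a gene. Of 45101 probe sets, 64 array controls were left out, and 27931 with a signal above the array median on at least 2 arrays were tested. On log2(signal + 4.4), with 4.4 as the 20th percentile over all signals, limma 3.58.1 in R 4.3.3 fitted 6 group means over the 12 arrays, with a variance prior that follows signal. Adjustment was Benjamini-Hochberg within each of 9 comparisons, called at an adjusted p under 0.05, and the method was tested on simulated data. Probe sets of 1 gene were represented by the brightest.

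The members and lists were chosen with earlier results of these data known. Full values were given for up to 8 called members per comparison with the largest change, the member with the highest signal in a role group with no call, and up to 4 called genes of each other list. Alternatives were quantile normalization, pseudocounts of 1 and 23.4, no filter, a stricter filter (75th percentile), no trend in the variance prior, probe sets without a letter suffix, a replicate block, and each of the 12 arrays left out. These make 20 fits besides the one reported. The alternative with probe sets without a letter suffix reads the reported fit through another probe set, and repeats the reported value where the brightest has no suffix.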

Additional observations from a re-analysis of the deposited data

Results flagged for a closer look

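A difference between the strains' responses at 4 h, KD minus WT, was tested as an interaction, and 6 genes of the lists passed. Over all tested probe sets, 1.88% had a higher and 1.19% a lower difference. Among the members it was 1.471 for Dhcr7, 1.252 for Scd2 and 0.534 for Scd1. Dhcr7 fell in both strains and Scd2 fell in both, each by more in WT, while Scd1 rose in KD and was not called in WT. Among the other genes it was 0.856 for Acss2, and -1.091 for Ch25h, a gene that rose in both strains and by more in WT. For Npc2, a lysosomal cholesterol carrier, it was -0.512. Unstimulated levels that enter these differences were called higher in KD for Npc2 (group means 4974 against 3652 in WT) and Ch25h (160 against 97.85). With 1 array left out these calls were lost in 1 and 4 fits. At 4 h the Npc2 means were 4089 in KD and 4295 in WT. All 6 limma calls were lost when the variance prior had no trend. Of the 12 fits with 1 array left out, the call was lost in 7 for Npc2, in 5 for Ch25h and in 3 for Acss2, and in 10 for Scd1. With probe sets without a letter suffix the calls of Acss2 (0.382, limma adjusted p = 0.736) and Npc2 (-0.114, limma adjusted p = 0.719) were also lost. Stromal markers differed between the strains in the same direction as Dhcr7, Scd2 and Scd1. Their part in these differences was not tested.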

How the results depend on the processing

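Of 33 member calls, 11 were made in all 20 alternative fits: Dhcr7 in 4 comparisons, Scd2 and Fads1 in 3 each and Scd1 in KD at 1 h. The reported probe sets of these genes have no letter suffix. The alternative with such probe sets therefore repeated their reported values and could not lose the calls. Another tested probe set of Fads1 was not called where the reported one was. Over the alternatives, such repeats included, 556 of 659 values kept their direction and call, 100 lost the call and 3 changed sign. Without a trend in the variance prior the members called were 0 in WT at 1 h, 4 in WT from 1 h to 4 h, 1 in KD at 1 h, 2 in KD at 4 h, 2 in KD from 1 h to 4 h, 0 between unstimulated strains and 0 for the difference at 4 h. With probe sets without a letter suffix 3 were called in KD from 1 h to 4 h, and with a filter at the 75th percentile 2 between unstimulated strains. Leaving out 1 array gave 0 to 4 calls in WT at 1 h, 5 to 9 in WT from 1 h to 4 h, 1 to 4 in KD at 1 h, 3 to 6 in KD at 4 h, 2 to 5 in KD from 1 h to 4 h and 1 to 2 between unstimulated strains. The sign changed only with probe sets without a letter suffix, which read another probe set of the gene: for Msmo1 0.754 in WT from 1 h to 4 h, 0.489 in KD at 4 h and 0.602 in KD from 1 h to 4 h, for Elovl5 -0.005 in WT at 1 h and -0.061 between unstimulated strains, and for Npc2 0.023 in KD at 1 h. Same-numbered arrays did not deviate together over the tested probe sets (correlations of -0.068 to 0.04 over 15 pairs of groups). This cannot show whether same-numbered cultures shared an origin, and the reported fit does not pair them. With the number as a replicate block, 2 members were called in WT at 1 h, 5 in WT at 4 h, 8 in WT from 1 h to 4 h, 2 in KD at 1 h, 5 in KD at 4 h, 4 in KD from 1 h to 4 h and 2 for the difference at 4 h. Signals near background, as of Fdps and Elovl6, allow no statement on change.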
